A study of Mus musculus with 15 samples.

Results

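The genes described here are 38 named genes of glycolysis and of the cell's response to low oxygen, out of 24650 annotated genes that had a value above 0 in at least 1 of 15 mouse RNA sequencing libraries. They were taken by name from a fixed list, not by a cutoff on their values, and the list was chosen with earlier results of these data known. Of the 38, 17 code for glycolytic enzymes, 6 for transporters and regulators of the pathway, 4 for subunits of the hypoxia-inducible factor (HIF) or the hydroxylases that control it, and 11 for other HIF targets. All 38 had a value in some library, and 36 had a value above 0 in all 15.

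Glycolysis splits glucose into pyruvate in the cytosol and yields ATP without oxygen. Lactate dehydrogenase then turns pyruvate into lactate, which monocarboxylate transporters carry across the membrane. Cells short of oxygen, and many tumors even with oxygen, run the pathway faster. HIF is a pair of proteins whose alpha subunit (Hif1a or Epas1) is marked for destruction by prolyl hydroxylases (Egln1, Egln3) as long as oxygen is present, and is stable without it. HIF binds DNA at a short core motif and raises the transcription of most glycolytic enzymes and of genes for vessel growth, mitophagy and collagen folding. Several steps have isozymes, and tissues differ in which of them they use most.

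The libraries fell into 5 groups of 3, all from C57BL/6 mice. A set of 4 groups came from GL261 glioma, a single mouse glioma line grown as an implant. The untreated tumors, written as 0 µg, are titled as having no treatment, and no dosing schedule is given for them. The treated tumors received 50, 100 or 200 µg per dose of the antibody B20.4.1.1 every 3 days from day 10 after implantation. B20.4.1.1 blocks VEGF-A (vascular endothelial growth factor A, a main signal for vessel growth). The other group was healthy brain. Tumors were taken after the blood had been washed out with saline. Groups follow the sample titles. The agent tag in the labels goes against the title for replicate 3 of all 4 tumor groups: the untreated library is tagged 50 µg, the 50 µg library 100 µg, the 100 µg library 200 µg, and the 200 µg library carries no agent. The antibody acts on a protein, so no transcript could serve as a check of the dose. The labels call the samples individual but do not tie them to animals, so the p-values speak of the spread among these libraries, which may be technical.

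Each library had its own assembly of 38194 to 89641 transcripts with FPKM values (fragments per kilobase of transcript, scaled to the number of mapped fragments). Read coverage behind 1 FPKM, a measure of depth, had a median of 6.94 to 13.2 in the tumor libraries, against 7.78, 6.10 and 22.1 in brain. Some libraries stood apart. The share of genes listed in 3 or more separate pieces was 2.75 to 4.63% in 7 tumor libraries, 11.2% in replicate 3 at 50 µg, 0.378% in replicate 3 at 100 µg and 0.577 to 0.693% at 200 µg. Thus replicate 3 at 100 µg lay with the 200 µg group in this measure, and what sets these 4 libraries apart cannot be told apart from the highest dose. Brain libraries had 20.9, 8.33 and 1.69%.

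Brain and tumor differ in their cells, as marker genes show. The summed level of 7 neuron genes was 10.1 to 18.1 FPKM in untreated tumors, against 1803 to 2620 FPKM in brain. The 6 astrocyte genes summed to 12.3 to 23.3 FPKM in untreated tumors, with Gjb6 listed at 0 in all 3, against 208 to 252 FPKM in brain, and 6 oligodendrocyte genes to 52.7 to 82.4 FPKM in tumors, against 674 to 747 FPKM in brain. The 6 genes of dividing cells summed to 171 to 298 FPKM in untreated tumors, against 0.685 to 2.23 FPKM in brain, where Ccnb1 was listed at 0. The 7 microglia and macrophage genes (40.8 to 85.1 FPKM in tumors, 54.0 to 64.9 FPKM in brain) and the 6 endothelial genes (45.7 to 69.0 FPKM in tumors, 39.6 to 49.7 FPKM in brain) had overlapping or nearby ranges. By limma, 7 of 7 neuron, 6 of 6 astrocyte and 5 of 6 oligodendrocyte genes were lower in tumor, and 6 of 6 genes of dividing cells higher. Of all genes tested, 28.0% were lower and 32.7% higher. Of the microglia and macrophage genes 2 were higher and 1 lower, of the endothelial genes 1 higher and 1 lower, and of 2 red blood cell genes tested none was called. In bulk tissue, fewer cells of a type and less RNA per cell cannot be told apart, and the part of cell makeup in the differences between tumor and brain was not tested.

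The sequences shown first are a pair of exons whose listed use differed between the tumor and brain libraries. Pyruvate kinase, which makes the last ATP of glycolysis, has a muscle and brain form (M1) and a form of dividing cells and many tumors (M2) from the same gene, Pkm. They differ by a single exon out of a mutually exclusive pair of 167 bases each, exon 9 for M1 and exon 10 for M2. Both are coding exons on the plus strand (GRCm38, the build of mm10), at chr9:59675029-59675195 for exon 9 and chr9:59675568-59675734 for exon 10. They are shown 5′ to 3′ with the 64 bases that differ in capitals (61.7% identical):
Pkm exon 9: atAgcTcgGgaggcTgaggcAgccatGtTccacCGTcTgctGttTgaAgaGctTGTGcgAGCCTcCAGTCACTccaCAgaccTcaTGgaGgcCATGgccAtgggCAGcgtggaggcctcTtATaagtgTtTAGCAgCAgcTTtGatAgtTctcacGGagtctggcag
Pkm exon 10: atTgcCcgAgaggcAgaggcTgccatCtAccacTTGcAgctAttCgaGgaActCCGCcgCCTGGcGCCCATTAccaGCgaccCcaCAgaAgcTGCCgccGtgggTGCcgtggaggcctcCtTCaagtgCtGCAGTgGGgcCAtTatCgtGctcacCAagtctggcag

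Promoter windows are shown for 4 members that were higher in tumor, with roles in glucose entry into the pathway (Hk2), ATP production (Pgk1), lactate production (Ldha) and lactate export (Slc16a3). They run from 250 bases before to 50 after the annotated start (RefSeq, GRCm38.p6), read 5′ to 3′ on the strand of the gene, with every ACGTG on either strand in capitals. ACGTG is a form of the core of the HIF binding motif, the only form counted here, and overlaps the CACGTG motif of other factors.
Hk2 (chr6:82774405-82774704, minus strand): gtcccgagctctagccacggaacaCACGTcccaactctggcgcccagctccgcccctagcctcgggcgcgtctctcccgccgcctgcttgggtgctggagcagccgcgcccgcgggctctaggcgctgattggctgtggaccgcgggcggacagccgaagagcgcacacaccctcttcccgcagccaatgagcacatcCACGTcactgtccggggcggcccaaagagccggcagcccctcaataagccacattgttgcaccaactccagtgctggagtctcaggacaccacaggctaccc
Pgk1 (chrX:106186850-106187149, plus strand): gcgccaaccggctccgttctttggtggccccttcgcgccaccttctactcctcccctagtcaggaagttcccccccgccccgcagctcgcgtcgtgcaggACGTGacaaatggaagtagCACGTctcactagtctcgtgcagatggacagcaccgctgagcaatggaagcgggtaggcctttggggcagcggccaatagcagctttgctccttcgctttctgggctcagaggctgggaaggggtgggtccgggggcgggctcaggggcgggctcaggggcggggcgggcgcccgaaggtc
Ldha (chr7:46845554-46845853, plus strand): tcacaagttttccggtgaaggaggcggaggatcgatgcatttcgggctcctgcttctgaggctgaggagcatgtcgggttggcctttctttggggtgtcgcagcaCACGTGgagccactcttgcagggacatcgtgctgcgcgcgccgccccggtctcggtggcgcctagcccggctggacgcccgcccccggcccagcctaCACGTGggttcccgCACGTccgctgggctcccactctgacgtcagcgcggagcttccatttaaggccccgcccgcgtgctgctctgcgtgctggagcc
Slc16a3 (chr11:120948817-120949116, plus strand): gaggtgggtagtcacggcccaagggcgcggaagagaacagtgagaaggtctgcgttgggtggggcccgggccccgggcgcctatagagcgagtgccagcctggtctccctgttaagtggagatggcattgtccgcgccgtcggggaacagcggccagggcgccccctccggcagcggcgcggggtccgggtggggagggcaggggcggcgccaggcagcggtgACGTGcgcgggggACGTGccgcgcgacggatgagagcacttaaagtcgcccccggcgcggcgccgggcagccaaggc
ACGTG was found in 19.6% of the 32851 promoter windows of the table and in at least 1 window of 21.8% of its 27025 genes. Of the members, 34 had an entry (all but Epas1, Ero1l, Bnip3l and Ndrg1), and 24 of them (70.6%) held the motif. Member windows were also richer in G and C, with a median of 63.3%, against 52.7% for all windows. The motif was in 11 of the 13 members with an entry that were higher in untreated tumor, in 6 of the 9 that were lower and in 7 of the 12 that were not called. A match is a description of the letters and does not show a bound site.

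In the hexokinase, enolase and lactate dehydrogenase steps, an isozyme was higher in untreated GL261 tumor than in healthy brain and another was lower. The glucose transporter Slc2a1, the hexokinase Hk2, the lactate dehydrogenase Ldha and the lactate exporter Slc16a3 were higher in tumor. The isozymes Hk1, Ldhb, Eno2 and Aldoc were lower. The isozyme with more FPKM did not always change: Hk1 stayed above Hk2, and Aldoa above Aldoc, in both tissues. Not every step had such opposite differences: Aldoa was lower together with Aldoc, and Pfkl and Pfkp were not called. With limma on log2(FPKM + 1) and an adjusted p under 0.05 over 16340 genes, 14 of the 38 members were called higher and 11 lower. The background was high: 32.7% of the 16340 passed upward and 28.0% downward, 60.7% in all, and the members' counts were near that background. The median difference was 0.29 on the log2 scale over the members and 0.14 over all genes tested. Under median-of-ratios scaling the median of all genes was −0.08, and 12 members were called higher and 13 lower.

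**Figure D1:**
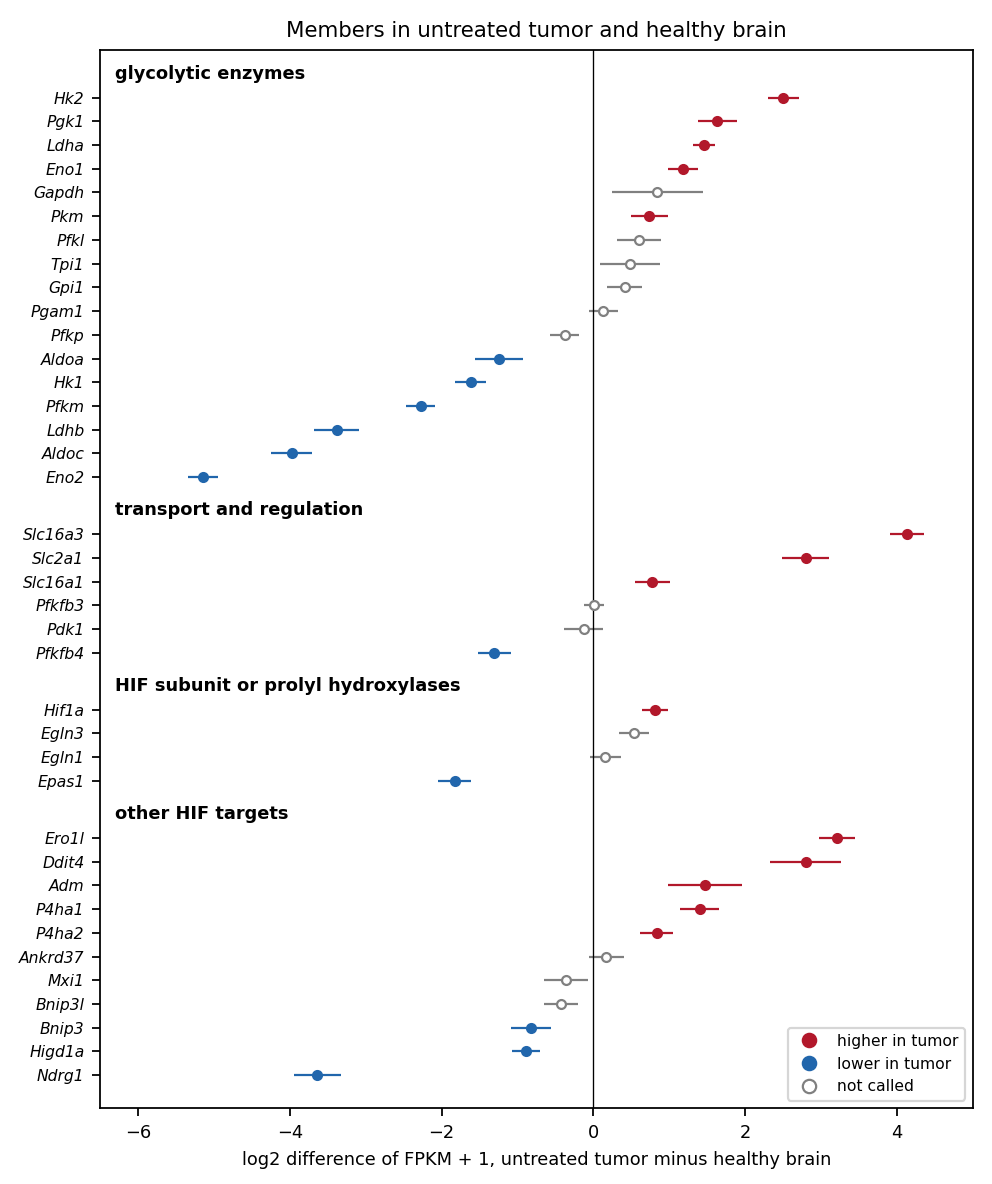
Difference in log2(FPKM + 1) between untreated tumor and healthy brain for the 38 members, by role, each with its standard error (3 libraries a group). Filled points passed an adjusted p of 0.05 in limma. The points run from −5.15 for Eno2 to 4.13 for Slc16a3, and enzymes stand on both sides of 0.

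Of the 17 enzymes, 5 were called higher in tumor and 6 lower, beside 32.7% higher and 28.0% lower of all genes tested. Hexokinases start glycolysis by phosphorylating glucose. Hk2, the form of muscle and many tumors, had 11.1, 13.7 and 10.5 FPKM in untreated tumors, against 1.72, 1.28 and 0.822 FPKM in brain. All 3 tumor values lay above all brain values, a log2 difference of 2.50 (SE 0.21, limma adjusted p = 0.000114). Hk1, the main hexokinase of brain, went the other way, with 18.6, 17.4 and 18.6 FPKM in tumors and 64.4, 67.2 and 44.4 FPKM in brain (−1.62, SE 0.20, limma adjusted p = 0.00066). The Hk1 call was lost with a plain FPKM sum (−1.03, limma adjusted p = 0.0812) and when transcripts that also touch another gene were left out (−0.16, limma adjusted p = 0.956), which bears on its share too; the Hk2 call held in all 13 alternatives. With all transcripts counted, Hk2 made up 39.3 ± 4.24% of the summed FPKM of Hk1 and Hk2 in tumors and 2.09 ± 0.438% in brain (SD, n = 3 each). Hk1 still had the higher FPKM of the pair in each untreated tumor.

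Phosphofructokinase, the enzyme that commits sugar to glycolysis, is a tetramer of liver (Pfkl), muscle (Pfkm) and platelet (Pfkp) subunits. Pfkm had 25.9, 22.3 and 18.9 FPKM in tumors, against 129.6, 107 and 99.1 FPKM in brain, with no overlap (−2.27, SE 0.19, limma adjusted p = 0.000118). Pfkl, with 74.9, 49.4 and 48.6 FPKM in tumors and 42.1, 46.3 and 25.7 FPKM in brain, did not pass the test (0.60, SE 0.29, limma adjusted p = 0.121). Pfkp had 27.8 to 35.6 FPKM in tumors and 33.6 to 47.4 FPKM in brain and did not pass either (limma adjusted p = 0.137). In shares of the summed FPKM of the 3 genes, tumors had 51.5% Pfkl, 28.3% Pfkp and 20.2% Pfkm, and brain had 19.7% Pfkl, 21.5% Pfkp and 58.8% Pfkm.

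Aldolase splits the 6-carbon sugar. Aldoc, the astrocyte-rich form in brain, had 18.0, 14.1 and 9.51 FPKM in tumors, against 243, 256 and 185 FPKM in brain (−3.97, SE 0.27, limma adjusted p = 5.15e-05). Aldoa, the widespread form, was also lower, with 516, 289.7 and 253 FPKM in tumors and 911, 868 and 636 FPKM in brain (−1.24, SE 0.31, limma adjusted p = 0.014). That call was lost without untreated replicate 2 and when transcripts that also touch another gene were left out. Enolase makes phosphoenolpyruvate, and Eno2 had the largest fall among the members. This form, known as neuron-specific enolase, had 5.55, 8.06 and 5.71 FPKM in tumors, against 290.1, 265 and 228 FPKM in brain (−5.15, SE 0.20, limma adjusted p = 1.15e-05). Eno1, the form of most other cells, had 707, 525 and 467 FPKM in tumors, against 248, 246 and 240.1 FPKM in brain (1.18, SE 0.19, limma adjusted p = 0.0023). Eno1 was 98.8% of the summed FPKM of the pair in tumors and 48.5% in brain.

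Lactate dehydrogenase is a tetramer of Ldha and Ldhb subunits, of which the Ldha form favors lactate production. Ldha had 363, 382 and 378 FPKM in tumors, against 150.0, 125 and 132 FPKM in brain. Ldhb had 26.5, 19.0 and 18.6 FPKM in tumors, against 295, 264 and 154 FPKM in brain. The groups did not overlap in either gene, with a log2 difference of 1.46 (SE 0.15, limma adjusted p = 0.000261) for Ldha and −3.38 (SE 0.29, limma adjusted p = 0.000143) for Ldhb. Ldha was 94.6 ± 1.21% of the pair in tumors and 37.3 ± 7.61% in brain (SD, n = 3 each).

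Pgk1, which makes the earlier ATP of the pathway, had 723, 597 and 412 FPKM in tumors, against 221, 163 and 163 FPKM in brain (1.63, SE 0.26, limma adjusted p = 0.00197). The other enzymes did not pass the test, apart from Pkm. Tpi1 interconverts the 3-carbon sugars and had 279 to 404 FPKM in tumors and 155 to 405 FPKM in brain. Gpi1, the isomerase after hexokinase, had 205 to 248 FPKM in tumors and 127 to 207 FPKM in brain, and Pgam1, which moves the phosphate before enolase, had 148 to 188 FPKM in tumors and 124 to 171 FPKM in brain. Summed over the 16 enzymes other than Gapdh, the level was 3515 ± 644 FPKM in untreated tumors and 3369 ± 638 FPKM in brain (SD, n = 3 each), a gap within the spread between libraries.

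**Figure D2:**
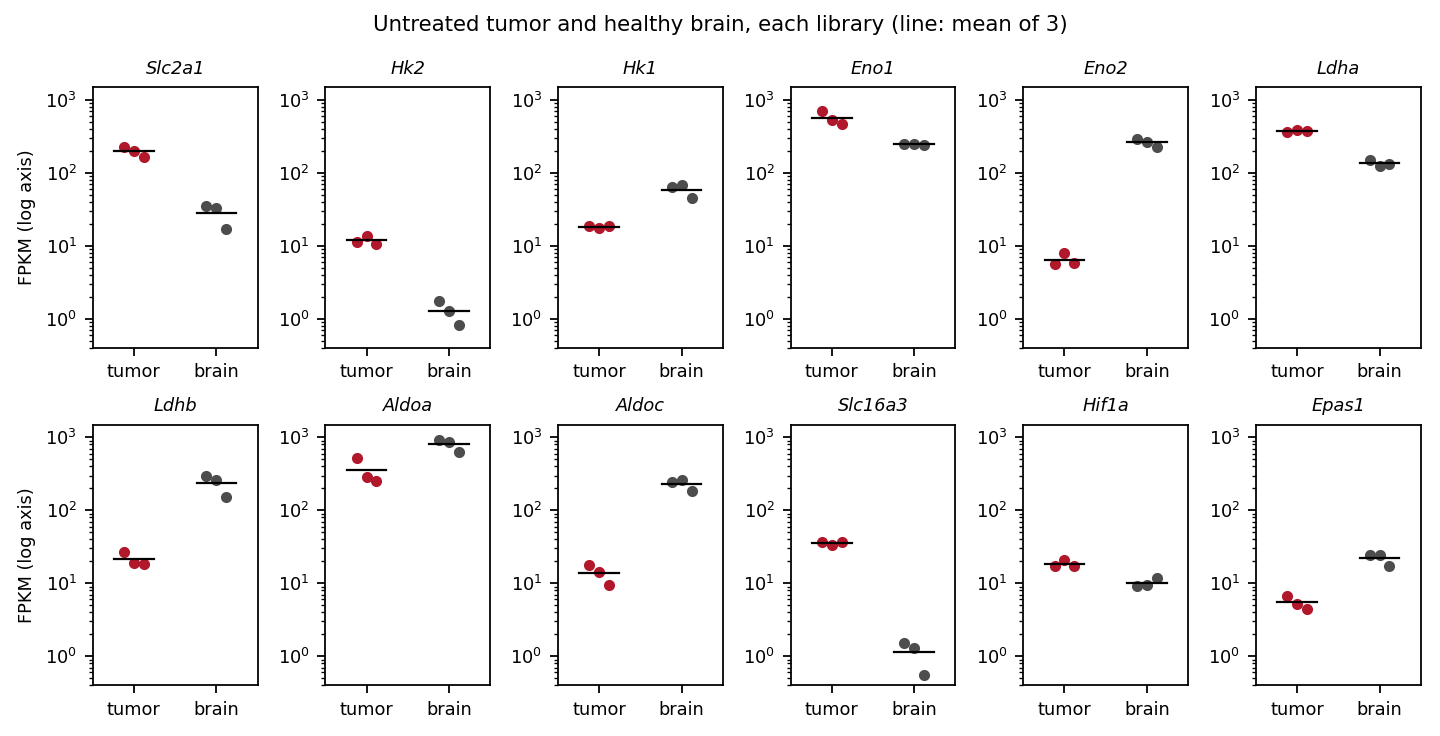
FPKM on a log axis of 12 members in each untreated tumor library (red, left) and each healthy brain library (grey, right); lines are means of 3. Hk2, Eno1, Ldha, Slc2a1, Slc16a3 and Hif1a lie higher in tumor, and Hk1, Eno2, Ldhb, Aldoa, Aldoc and Epas1 lower in tumor, with no overlap in any of the 12.

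Pkm as a whole had 829.6, 812 and 601 FPKM in tumors, against 560.4, 446 and 348 FPKM in brain. Its adjusted p was the highest of the enzymes called (0.74, SE 0.24, limma adjusted p = 0.0358), and the call was lost in 6 of 12 alternatives. Pkm and Slc16a1 had the smallest differences of the 14 members called higher and are described after their values were seen. The exon used differed more than the level. Transcripts with exon 10 (M2) held 100% of the FPKM of transcripts with either exon in all 3 untreated tumors and in all 9 treated ones. In brain they held 0, 22.6 and 0%, and the 22.6% of brain replicate 2 came from a fragment that began within exon 10. The mean difference was 92.5 percentage points between untreated tumor and brain (exact two-sided permutation p = 0.1, the smallest that 3 against 3 allows). Counting only transcripts with a splice junction from the shared upstream exon to the start of exon 9 or 10, the difference was 100 points. A transcript form below what the assembly lists would not be seen, so 100% means that no M1 transcript was listed in these tumors.

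Gapdh, often taken as a constant reference, cannot be read closely here. It had 2105, 2451 and 606 FPKM in untreated tumors, against 797, 1252 and 543 FPKM in brain (0.84, SE 0.60, limma adjusted p = 0.263). In untreated replicate 3 its whole value came from assembled transcripts joined to a neighboring gene, and the same was so of 5 treated libraries. Those 6 libraries had 301 to 737 FPKM, against 1026 FPKM or more in the other 6 tumor libraries. Gapdh also has 173 annotated genes alike over 400 bases or more, 164 of them pseudogenes, between which reads could be split.

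**Figure D3:**
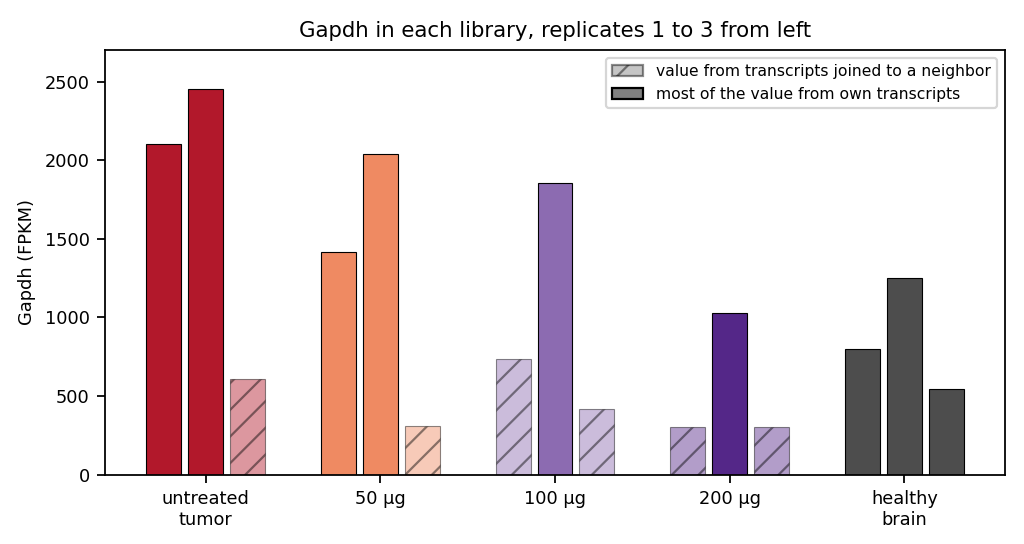
Gapdh (FPKM) in each library, with replicates 1 to 3 from left in each group. Hatched bars mark libraries in which all of the value came from transcripts joined to a neighboring gene; they reach 301 to 737 FPKM, and the other tumor libraries 1026 FPKM or more.

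Near-identical copies also touch other members, whose levels are uncertain to that extent: Ldha had 12 alike genes, Pkm 7, Bnip3 and Eno1 6 each, Aldoa 5, Pgk1 4, Pgam1 3, and Gpi1, Tpi1, Ldhb, Bnip3l and Mxi1 1 each. Since strand was not used, the values of members that overlap another annotated gene hold both genes. These were Slc2a1, Hif1a, Ndrg1, Gpi1, Bnip3, Pkm, Higd1a, Mxi1, Pfkp and Ankrd37. The value of Ankrd37 came wholly from joined transcripts in all libraries but untreated replicate 1.

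Of the 6 transporters and regulators, 3 were higher in tumor and 1 lower, beside 32.7% higher and 28.0% lower of all genes tested. Slc16a3 codes for MCT4, the exporter of lactate from highly glycolytic cells. It had 36.9, 33.6 and 36.3 FPKM in untreated tumors, against 1.53, 1.30 and 0.553 FPKM in brain, the widest rise among the members (4.13, SE 0.22, limma adjusted p = 2.49e-05). Slc2a1 codes for GLUT1, which takes up glucose in tumor cells and at the blood-brain barrier. It had 226, 198 and 163 FPKM in tumors, against 34.5, 33.3 and 17.1 FPKM in brain (2.80, SE 0.31, limma adjusted p = 0.000369). Slc16a1, which codes for the lactate carrier MCT1, had 13.0, 10.1 and 10.1 FPKM in tumors, against 6.54, 4.29 and 7.60 FPKM in brain (0.78, SE 0.23, limma adjusted p = 0.0266), a call lost in 6 of 13 alternatives, among them scaling and each single untreated library left out. Slc16a3 was 76.4 ± 2.14% of the summed FPKM of both carriers in tumors and 16.3 ± 8.54% in brain (SD, n = 3 each).

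Pfkfb3 and Pfkfb4 set the level of fructose 2,6-bisphosphate, the activator of phosphofructokinase. Pfkfb4 had 0.664, 0.413 and 1.28 FPKM in tumors, against 3.30, 3.08 and 3.59 FPKM in brain (−1.30, SE 0.21, limma adjusted p = 0.00222), low in each. Pfkfb3 had 5.31 to 5.74 FPKM in tumors and 5.27 to 5.59 FPKM in brain (0.01, limma adjusted p = 0.959). Pdk1, a kinase that holds pyruvate back from the mitochondrion, had 7.73 to 10.8 FPKM in tumors and 7.60 to 13.5 FPKM in brain (−0.13, limma adjusted p = 0.681).

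The 2 alpha subunits of HIF went opposite ways. Hif1a had 17.2, 20.9 and 17.0 FPKM in untreated tumors, against 9.26, 9.34 and 11.6 FPKM in brain (0.81, SE 0.17, limma adjusted p = 0.00683). Epas1, the subunit HIF-2 alpha, which is rich in endothelial cells, had 6.65, 5.25 and 4.50 FPKM in tumors, against 24.7, 24.2 and 17.2 FPKM in brain (−1.83, SE 0.22, limma adjusted p = 0.000527). Hif1a was 77.1 ± 4.27% of the pair in tumors and 31.9 ± 7.45% in brain (SD, n = 3 each). HIF is set mainly at the protein level, which was not measured. The hydroxylases Egln1 (0.16, limma adjusted p = 0.533) and Egln3 (0.53, limma adjusted p = 0.0575) did not pass the test.

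Of the 11 other HIF targets, 5 were higher in tumor and 3 lower, beside 32.7% higher and 28.0% lower of all genes tested. Ero1l, an oxidase of the endoplasmic reticulum that drives disulfide bond formation, had 76.2, 85.1 and 67.4 FPKM in untreated tumors, against 5.36, 7.19 and 9.96 FPKM in brain (3.21, SE 0.24, limma adjusted p = 7.46e-05). Ddit4, an inhibitor of mTORC1 under stress, had 116, 236 and 111 FPKM in tumors, against 25.9, 28.7 and 10.6 FPKM in brain (2.80, SE 0.47, limma adjusted p = 0.00241). The collagen prolyl hydroxylase subunits P4ha1 (1.40, SE 0.26, limma adjusted p = 0.00361) and P4ha2 (0.84, SE 0.21, limma adjusted p = 0.0149) were both higher in tumor, the call of P4ha2 being lost with a plain FPKM sum (0.30, limma adjusted p = 0.62) and with comprehensive exons (0.36, limma adjusted p = 0.175). The plain sum also ended the calls of Ddit4 (2.07, limma adjusted p = 0.0621) and Pfkfb4 (−1.32, limma adjusted p = 0.0924). Adm, the vasodilator peptide adrenomedullin, had 6.35, 8.89 and 3.04 FPKM in tumors and 3.36, 0.949 and 0.601 FPKM in brain. Its groups overlapped, and its call (1.48, SE 0.49, limma adjusted p = 0.0379) was lost in 8 of 13 alternatives.

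The lower ones were led by Ndrg1, a stress-response gene also found in myelinating cells, with 2.45, 1.20 and 0.678 FPKM in tumors, against 33.6, 22.4 and 29.3 FPKM in brain (−3.64, SE 0.31, limma adjusted p = 0.000125). Higd1a, a mitochondrial protein, had 11.5, 8.74 and 9.94 FPKM in tumors, against 22.0, 16.4 and 20.2 FPKM in brain (−0.89, SE 0.18, limma adjusted p = 0.00618). Its call was lost with a plain FPKM sum (−0.14, limma adjusted p = 0.652) and without transcripts that also touch another gene (−1.55, limma adjusted p = 0.304). Bnip3, a mitophagy receptor, had 25.0, 20.6 and 13.0 FPKM in tumors and 31.3, 32.6 and 39.2 FPKM in brain (−0.83, SE 0.26, limma adjusted p = 0.0334). That call was lost in 7 of 12 alternatives, and part or all of the Bnip3 value came from joined transcripts in 10 of 15 libraries, 100% in brain replicate 1. The remaining 3, the mitophagy receptor Bnip3l (−0.42, limma adjusted p = 0.141), the MYC antagonist Mxi1 (−0.36, limma adjusted p = 0.32) and Ankrd37 (0.17, limma adjusted p = 0.549), did not pass. Between tumor and brain, 6 of the 11 other HIF targets had estimates above 0 and 5 below. All genes tested likewise stood on both sides, 8803 above and 7537 below.

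Genes of the same pathways outside the 38 were read from 2 further lists. Of 44 genes of glycolysis, sugar transport and pyruvate use, 34 were tested, 13 were higher in tumor and 11 lower, with a median of −0.03. Over all genes tested, 32.7% were higher and 28.0% lower. The largest differences among them were G6pdx (3.19, limma adjusted p = 0.025) and Pgd (1.71), of the pentose phosphate pathway, Bpgm (1.80) and Adpgk (1.63) upward, and Pdk2 (−2.64), Pdp1 (−2.16), Ldhd (−2.07) and Slc16a7 (−1.97) downward. Of 42 further HIF pathway and target genes, 37 were tested, 22 were higher in tumor and 4 lower. Their median was 1.25, against 0.14 over all genes tested and 0.17 over the 11 other HIF targets among the members. This list was chosen with earlier results of these data known. Among the largest upward were Anxa2 (5.31), Plin2 (4.69), which coats lipid droplets, and Plod2 (4.01), which hydroxylates collagen lysines. The 4 lower ones were Arnt2 (−4.85), a partner subunit of HIF common in neurons, Ppp1r3c (−2.61), Bhlhe40 (−1.25) and Vldlr (−0.85).

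The dose comparisons ask how the pathway stood in tumors whose VEGF-A was blocked. They share the same 3 untreated tumors and came from a single fit of 12 tumor libraries over 14653 genes, of which 37 were members (Pfkfb4 was too low). The enzymes lay mostly below untreated tumor at each dose without passing the test, and Ldhb rose at 200 µg. At 50 µg limma called no gene of all 14653 (0.0%; 588 had an unadjusted p under 0.05, 2 of them members). At 100 µg it called 0.0887% of all genes (0.0751% higher, 0.0136% lower) and no member (8 members and 1313 of all genes had an unadjusted p under 0.05). At 200 µg it called 2.83% of all genes (2.03% higher, 0.798% lower), and 1 of 37 members, Ldhb, which is near that share. Of the 17 enzymes, 13, 15 and 13 had estimates below 0 at 50, 100 and 200 µg, 24, 29 and 24 of the 37 members, and 8694, 7524 and 6903 of all 14653 genes tested. Median differences over the members were −0.12, −0.28 and −0.20, against −0.07, −0.01 and 0.04 over all genes tested.

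Ldhb (chr6:142490249-142507957, minus strand) had 26.5, 19.0 and 18.6 FPKM in untreated tumors. It had 20.4, 29.5 and 21.8 FPKM at 50 µg, 33.6, 44.7 and 30.6 FPKM at 100 µg, and 47.3, 45.1 and 47.6 FPKM at 200 µg. All libraries at 100 and 200 µg lay above all untreated ones, and all those at 200 µg above every other tumor library. Against untreated tumor the log2 difference was 1.11 at 200 µg (SE 0.21, limma adjusted p = 0.0284) and 0.74 at 100 µg (SE 0.21, limma adjusted p = 0.292). The call at 200 µg was lost in 9 of 23 alternatives: it did not hold without untreated replicate 2 or 3 or any single 200 µg library, nor with the 4 conflicting libraries left out (1.01, limma adjusted p = 0.0761) or grouped by their agent tag (0.47, limma adjusted p = 0.609). It was also lost with a plain FPKM sum (1.09, limma adjusted p = 0.0768) and with a term for the 200 µg libraries and replicate 3 at 100 µg (1.44, limma adjusted p = 0.202). The level stayed far below the 154 to 295 FPKM of brain. Ldha had 363, 382 and 378 FPKM untreated, 307, 317 and 359 FPKM at 50 µg, 256, 225 and 264 FPKM at 100 µg and 255, 273 and 348 FPKM at 200 µg. Every treated value lay below every untreated one, yet Ldha did not pass the test at 100 µg (−0.59, SE 0.16, limma adjusted p = 0.279) or 200 µg (−0.37, limma adjusted p = 0.21). The Ldha share of the pair was 94.6% at 0, 93.2% at 50, 87.1% at 100 and 86.0% at 200 µg, and 83.4 to 89.6% in the 6 libraries at 100 and 200 µg, against 93.2 to 95.3% in untreated tumors.

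**Figure D4:**
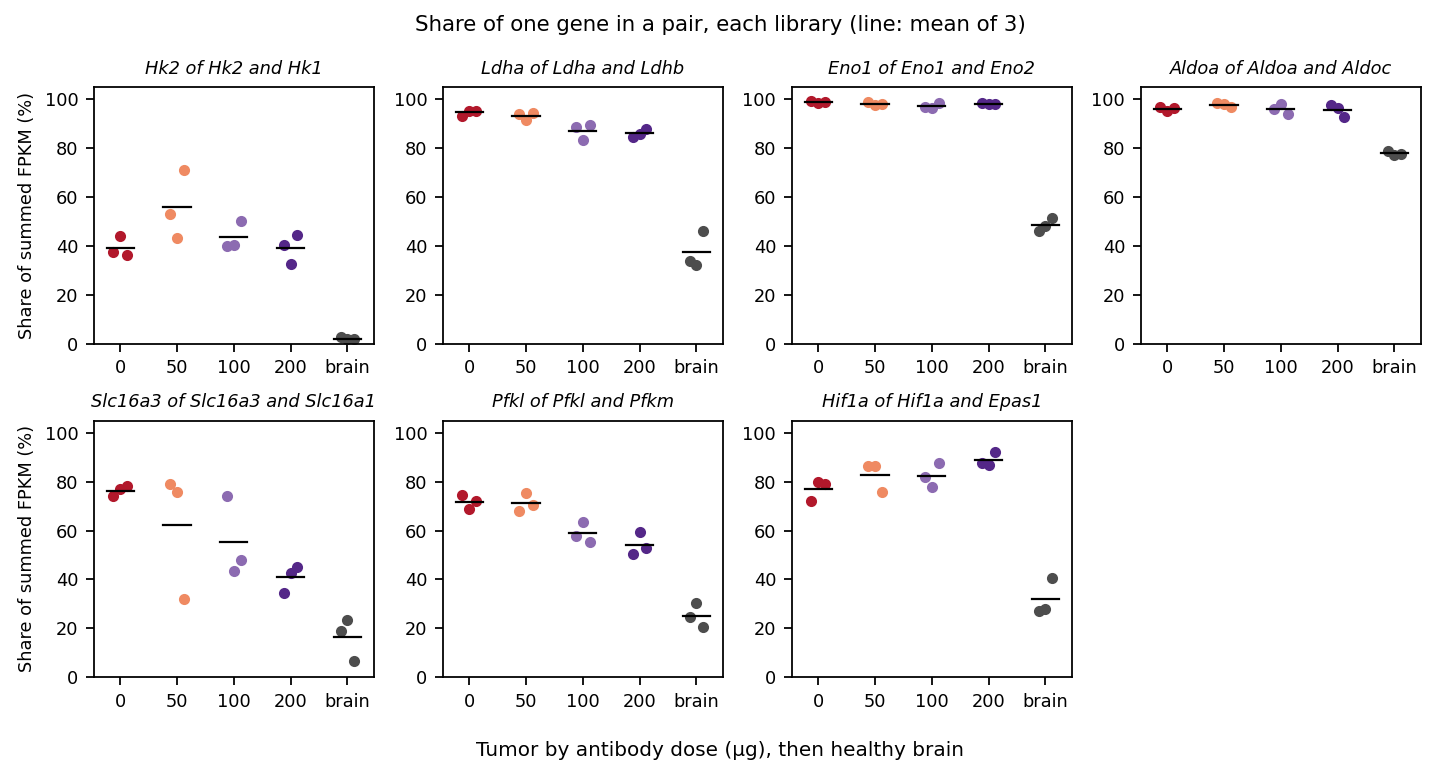
Share of 1 gene in the summed FPKM of a pair, in each library by dose, with healthy brain at the right; lines are means of 3. The Ldha share lay at 94.6% in untreated tumors, 86.0% at 200 µg and 37.3% in brain, and the Slc16a3 share at 76.4%, 40.9% and 16.3%.

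A linear trend over 0, 50, 100 and 200 µg, fitted on its own, called 3 members, Ldhb and Hif1a upward and Pfkl downward. Over all genes it called 7.53% (5.1% up, 2.43% down), and the members' count, 3 of 37, was near that share. Ldhb rose by 0.59 per 100 µg (SE 0.10, limma adjusted p = 0.00998). Hif1a (chr12:73901375-73947530, plus strand) had 17.2, 20.9 and 17.0 FPKM untreated, 18.9, 25.5 and 14.2 FPKM at 50 µg, 19.0, 20.7 and 38.3 FPKM at 100 µg and 40.1, 36.9 and 31.1 FPKM at 200 µg. Its higher values were those of the 200 µg group and of replicate 3 at 100 µg, the same 4 libraries that held few genes in pieces. By the agent tags, replicate 3 at 100 µg belongs to 200 µg, and replicate 3 at 200 µg (31.1 FPKM) carries no agent. Its trend was 0.49 per 100 µg (SE 0.13, limma adjusted p = 0.0367), and 0.03 (limma adjusted p = 0.962) with a term for those 4 libraries, which leaves little to tell them from the dose. Pfkl (chr10:77986947-78009807, minus strand) had 74.9, 49.4 and 48.6 FPKM untreated, 44.7, 64.8 and 31.3 FPKM at 50 µg, 34.6, 30.0 and 24.5 FPKM at 100 µg and 23.4, 33.6 and 21.3 FPKM at 200 µg. It fell by 0.57 per 100 µg (SE 0.14, limma adjusted p = 0.0334), with all libraries at 100 and 200 µg below all untreated ones. The trends of Hif1a and Pfkl were each lost in 11 alternatives, among them leaving out single untreated or 200 µg libraries, and that of Ldhb in 3, where the conflicting tags or the 4 libraries were taken into account.

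At 200 µg the next members by p were Pfkl (−1.11, SE 0.29, limma adjusted p = 0.0674) and Hif1a (0.93, SE 0.28, limma adjusted p = 0.0928). Gpi1 had 109, 117 and 139 FPKM at 200 µg, against 248, 237 and 205 FPKM in untreated tumors (−0.91, SE 0.29, limma adjusted p = 0.102). Slc16a1 had 27.4, 21.7 and 20.7 FPKM at 200 µg, against 13.0, 10.1 and 10.1 FPKM in untreated tumors (1.01, limma adjusted p = 0.103). Every 200 µg library lay below the untreated ones in Gpi1 and above them in Slc16a1. Slc16a3 had 14.5, 16.2 and 17.1 FPKM at 200 µg, against 36.9, 33.6 and 36.3 FPKM in untreated tumors (−1.11, SE 0.45, limma adjusted p = 0.174). Its share of the summed FPKM of both lactate carriers was 74.0 to 78.1% untreated, 79.2, 75.7 and 32.0% at 50 µg, 74.3, 43.5 and 47.8% at 100 µg, and 34.6 to 45.3% at 200 µg. The low share at 50 µg was that of replicate 3, which stood apart and whose agent tag is 100 µg. At 100 µg, 1 library lay within the untreated range. Replicate 3 at 200 µg, with a share of 45.3%, carries no agent tag. Whether title or tag gives the dose was not tested. Slc2a1 had 226, 198 and 163 FPKM untreated, 347, 200.1 and 62.5 FPKM at 50 µg, 85.0, 65.4 and 121 FPKM at 100 µg and 61.4, 77.1 and 104 FPKM at 200 µg. Its values at 100 and 200 µg lay below every untreated one, and the 50 µg libraries spread over both ranges (200 µg: −1.29, SE 0.51, limma adjusted p = 0.172).

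**Figure D5:**
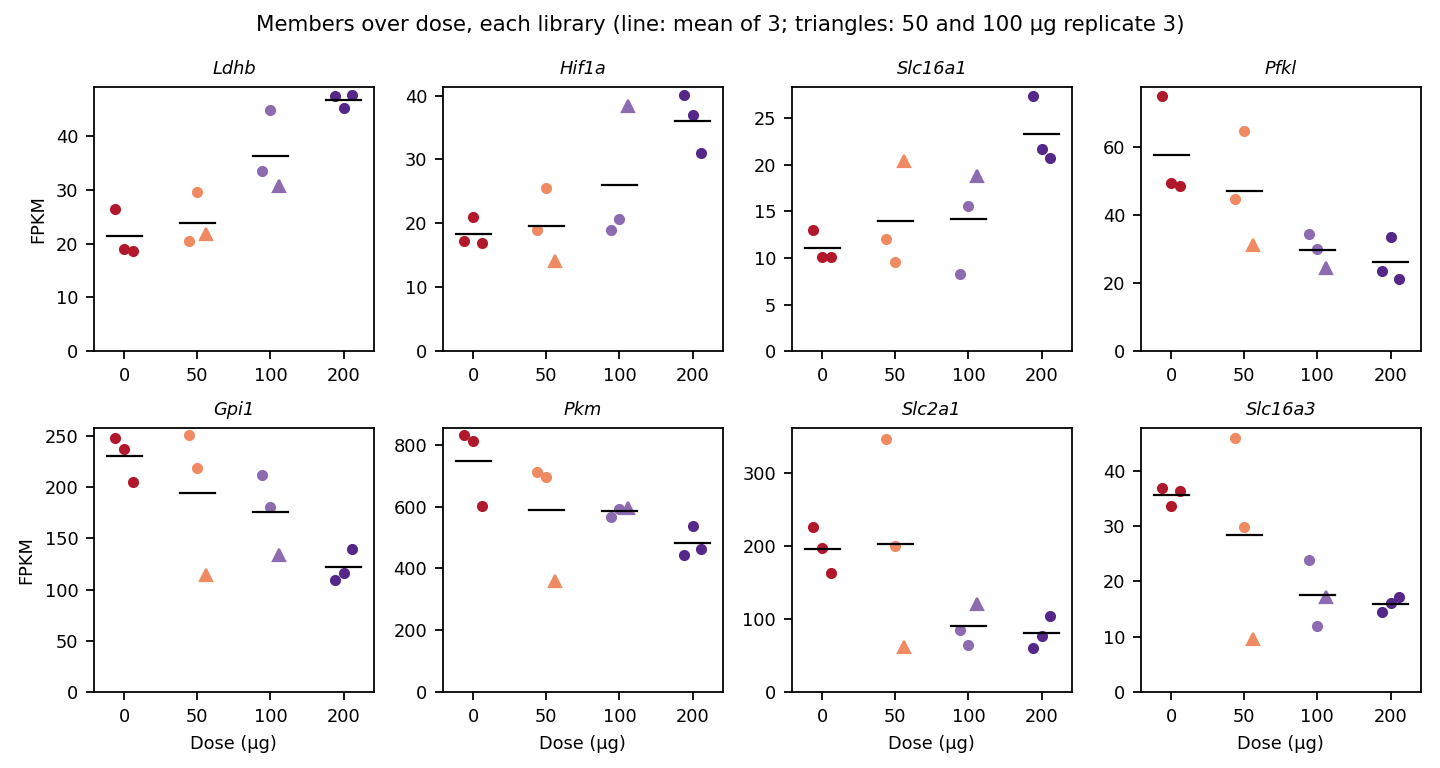
FPKM of 8 members in each tumor library at 0, 50, 100 and 200 µg by title. Lines are means of 3. Triangles mark replicate 3 at 50 and 100 µg, which stood apart and whose agent tags name 100 and 200 µg. Ldhb, Hif1a and Slc16a1 were highest on average at 200 µg, and Gpi1, Pkm, Slc2a1 and Slc16a3 lowest on average there, as was Pfkl.

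More members were called at 200 µg when libraries that stood apart were left out, with the same differences and smaller standard errors (Slc2a1: 0.27, against 0.51 with all libraries). Calls over all genes rose too, from 298 higher and 117 lower of 14653 with all libraries. They were 577 and 415 of 14589 without replicate 3 at 50 µg. They were 1351 and 1002 of 14594 without replicate 3 at both 50 and 100 µg. With the 4 libraries of conflicting tag left out, they were 510 and 375 of 14664. Without replicate 3 at 50 µg, Ldhb was called higher and Slc2a1, Gpi1, Pfkl and Slc16a3 lower. Without replicate 3 at both 50 and 100 µg, Ldhb, Slc16a1 and Hif1a were called higher, and Slc2a1 (−1.29, SE 0.27, limma adjusted p = 0.0191), Gpi1 (−0.91, limma adjusted p = 0.0088), Pfkl (−1.11, limma adjusted p = 0.0227), Pkm (−0.62, limma adjusted p = 0.0324) and Slc16a3 (−1.11, limma adjusted p = 0.0241) lower. With the 4 libraries of conflicting tag left out, Hif1a was called higher and Slc2a1, Gpi1 and Pkm lower. With the libraries grouped by their agent tag, or with those 4 of few pieces marked by a term in the fit, no member was called.

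At lower doses the members with the smallest p are given as not called. At 50 µg these were Hk1 (−0.70, SE 0.29), Eno1 (−0.57, SE 0.25) and Pfkfb3 (−0.43, SE 0.24), each with a limma adjusted p = 0.889. At 100 µg they were Ldha, Ldhb and Eno1 (−0.82, SE 0.25, limma adjusted p = 0.333). Eno1 had 707, 525 and 467 FPKM untreated, 514, 394 and 262 FPKM at 50 µg, 329, 276 and 347 FPKM at 100 µg and 391, 389.8 and 339 FPKM at 200 µg. No member was called at 50 or 100 µg under any alternative run.

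Some groups did not overlap at all. At 50 µg, Hk1 and Ldha lay below untreated tumor in every library, 2 of 37 members (6.09% of all genes) and no member above (3.32%). At 100 µg, 11 members lay wholly below, against 7.07% of all genes, and Ldhb wholly above, against 7.51%. At 200 µg, 11 members lay wholly below, against 17.0% of all genes, and 5, namely Ldhb, Slc16a1, Pfkfb3, Bnip3l and Hif1a, wholly above, against 21.8%. The members below at both higher doses were Slc2a1, Hk1, Pfkl, Eno1, Pkm, Ldha, Pdk1 and Slc16a3, which share the untreated libraries. These counts carry no test.

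The summed FPKM of the 11 other HIF targets averaged 353 untreated, 352 at 50, 364 at 100 and 404 ± 58.2 at 200 µg, within the spread of the untreated tumors (SD 89.1, n = 3), and none was called at any dose. Ddit4 (mean 154 FPKM untreated) and Ero1l (76.2 FPKM) made up most of that sum, so it says little of the lower targets. The Ero1l value of 200 µg replicate 2 (57.1 FPKM) came wholly from joined transcripts. The 16 enzymes without Gapdh summed to 4188, 3452 and 2904 FPKM untreated, 3601, 3253 and 2192 FPKM at 50 µg, 2779, 2372 and 2534 FPKM at 100 µg, and 2600, 2739 and 2555 FPKM at 200 µg. All libraries at 100 and 200 µg lay below all untreated ones in this sum, with no test of it. Bnip3l had 38.2, 38.1 and 47.8 FPKM at 200 µg, against 27.8, 33.8 and 22.7 FPKM in untreated tumors, and Ddit4 had 170.5, 153 and 233 FPKM at 200 µg, against 116, 236 and 111 FPKM in untreated tumors. Pgam1 was listed at 0 in replicate 3 at 50 µg, and Pfkfb4 in replicates 2 and 3 at 50 µg. An exact 0 in such a file can be a failed assembly.

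In the further lists, no gene was called at 50 or 100 µg. At 200 µg, where 2.03% of all genes were called higher and 0.798% lower, few genes of these lists were called. Pdp1, a phosphatase that turns pyruvate dehydrogenase on, was higher at 200 µg (0.82, SE 0.16, limma adjusted p = 0.0318), 1 of 31 genes tested of the list of glycolysis, transport and pyruvate. Of 36 HIF pathway and target genes tested, Ppp1r3c (2.29, SE 0.36, limma adjusted p = 0.0174), which targets a phosphatase to glycogen, and Vldlr (1.51, SE 0.24, limma adjusted p = 0.0172), a lipoprotein receptor, were higher, and Fam162a (−1.48, SE 0.31, limma adjusted p = 0.038) was lower. The trend called Pdp1 (0.42 per 100 µg), Ppp1r3c (1.08), Vldlr (0.76) and Rora (0.58) upward and Fam162a (−0.80), Igfbp3 (−0.57) and Plod1 (−0.51) downward. It called 5.1% of all genes upward and 2.43% downward. Among the marker lists, 2 of 5 oligodendrocyte genes tested, Mag (−1.02) and Cldn11 (−2.09), were lower at 200 µg, where the list summed to 42.5 to 54.3 FPKM, against 52.7 to 82.4 FPKM in untreated tumors. The neuron genes summed to 6.23 to 7.76 FPKM at 200 µg, against 10.1 to 18.1 FPKM in untreated tumors, with none of 4 tested called. No marker of the other lists was called at 200 µg, and the part of cell makeup in the dose differences was not tested.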

How the data were processed

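RNA was sequenced from 15 libraries, 3 in each of 5 groups taken from the sample titles. STAR, Cufflinks and the build mm10 are named, per the submitters' processing notes, with no version, and the parameters they ran with are not given in the sources used here. For each library the authors deposited an assembly, whose other values, read from the text of each transcript's entry, are its FPKM and coverage, with no gene names. FPKM is relative to the library's total, and each library was assembled separately, so a gene can be listed in pieces or joined to a neighbor.

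To value a gene, the FPKM of each transcript on its exons was weighted by the portion of those exons that it covers, and the products were added (GENCODE M21 basic exons, GRCm38, strand ignored, transcripts of 1 exon under 200 bases dropped). A joined transcript has over 50% of its exonic bases outside the gene. Tests used limma 3.58.1 in R 4.3.3 on log2(FPKM + 1), a scale that understates the change of low genes, for genes that averaged 1 FPKM or more in the fit, with Benjamini-Hochberg adjustment and a threshold of 0.05. The fits were tumor against brain (6 libraries), 3 doses against untreated (12 libraries) and a linear trend per 100 µg (the same 12), 5 comparisons in all. Pkm exon shares were compared with an exact permutation test. The code was tested on simulated data. Overlaps used bedtools 2.31.1, and copies were found with blastn 2.17.0 (90% identity over 400 bases).

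The alternatives were a plain FPKM sum, transcripts that also lie on exons of another gene left out (a wider set than the joined ones), another pseudocount (0.1), no filter, median-of-ratios scaling, a replicate block, comprehensive exons, each library left out, the 4 libraries of conflicting tag left out or grouped by it, and a term for 4 libraries. The named genes are all 38 members: up to 12 called per direction by size, or the 3 with the smallest p where fewer than 3 were called, and up to 4 genes by size from each further list, of which 1 is not reported here. The members and lists were chosen with earlier results of these data known. The basic exons, the copy criterion, the measures of pieces and joining, the isozyme pairs and sums, the motif and promoters shown, the leaving out of 2 libraries and the grouping by agent tag were chosen after values were seen.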

Additional observations from a re-analysis of the deposited data

How the results depend on the processing

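No call on a single member changed direction under the alternatives run, but balances did. Under median-of-ratios scaling the members against brain were 12 higher and 13 lower, and all genes 4481 higher and 5254 lower with a median of −0.08 (0.14 before). The median of all genes at 200 µg, 0.04, was −0.01 with scaling, −0.06 with the plain sum and −0.08 with the term for 4 libraries. Against brain, 14 members were called higher and 11 lower. The plain FPKM sum called 9 members higher and 7 lower, and 3368 and 3371 of all 16263 genes tested. Leaving out transcripts that also touch another gene called 10 members higher and 6 lower, and 3118 and 2642 of all 11398 genes tested. Slc2a1, Hif1a, Ndrg1, Pkm and Bnip3 were not tested in that setting. With single libraries left out, 11 to 15 members were higher and 9 to 11 lower. At 50 and 100 µg no member was called under any alternative. At 200 µg, with 1 member called higher and 0 lower, the plain sum, the agent tag and the term for 4 libraries called 0 higher. Leaving out the conflicting tags called 3 lower, and leaving out both libraries that stood apart called 3 higher and 5 lower. Leaving out single libraries gave 0 to 2 higher and 0 to 4 lower. For the trend, with 2 higher and 1 lower, the plain sum and the removal of transcripts that touch another gene gave 1 higher and 0 lower. Hif1a was not tested under that removal. Scaling and comprehensive exons gave 2 lower, leaving out the conflicting tags 0 higher and 2 lower, the agent tag and the term for 4 libraries 0 in each direction, and leaving out both libraries that stood apart 5 lower. Single libraries left out gave 1 to 3 higher and 0 to 5 lower. The cause of these shifts was not tested. The Pkm exon difference was 88.7 to 100 points with single libraries left out.

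With the replicate number as a block, 14 members were higher and 10 lower against brain (Bnip3 was lost), and the trend had 1 higher (Ldhb) and 2 lower (Pfkl and Gapdh). Deviations from group means correlated at −0.0746 to 0.243 over 30 pairs of equal number, with a median of 0.017. Over 60 other pairs they correlated at −0.2005 to 0.1958. Whether libraries of equal number were paired or shared a batch cannot be told from these values. Single genes can still follow the number. Gapdh had 606, 310, 416 and 301 FPKM in replicate 3 at 0, 50, 100 and 200 µg. In replicate 2 it had 2451, 2039, 1853 and 1026 FPKM. Over all genes, calls at 200 µg were 298 higher and 117 lower, and ran from 4 (by agent tag) to 1351 higher and from 1 (without 200 µg replicate 1) to 1002 lower, the highest counts without both libraries that stood apart. The trend's 748 and 356 ran from 0 and 0 (term for 4 libraries) to 1230 and 948, and the 13 at 100 µg from none (replicate block) to 39 higher and 19 lower. The tumor and brain calls of 5347 and 4575, of 16340 genes tested, were 3118 and 2642 without transcripts that touch another gene. That setting tested only 11398 genes, so part of the drop is genes no longer tested. Depth is known only as coverage per FPKM, so members near 1 FPKM, such as Pfkfb4, are the least precise.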
